A study of Mus musculus with 2 samples.

Results

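Cldn18 encodes claudin-18, a four-pass membrane protein of epithelial tight junctions, and was examined here in mouse stomach through its gene row and its 4 transcript rows. The members were the 1 gene, of 43346 mouse genes in the deposited tables, whose ID carries the symbol Cldn18, and the 4 transcripts, of 103639 mouse transcripts, listed under that ID. The series holds 2 libraries from stomachs of C57BL/6J mice aged 8 weeks, made from polyadenylated RNA of over 200 nucleotides after removal of ribosomal RNA. Both libraries form 1 group, replicates 1 and 2, each described as pooled males and females, with no treatment and a health state given as unknown. The labels give each library its own tissue sample but the same donor record, so the spread between them may be partly technical. They held 52363597 expected read pairs in replicate 1 and 62452468 in replicate 2, as strand-specific pairs of 76-nucleotide reads with RNA spike-ins.

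Claudins line up in strands that close the space between neighbouring epithelial cells and set which ions pass. The mouse and human claudin-18 genes have alternative first exons with separate start sites, and the resulting proteins differ in their first transmembrane segment and first extracellular loop. One form is known as the stomach form and the other as the lung form, made in alveolar epithelium. The stomach form seals the gastric mucosa against acid, and the human stomach form is a target of antibodies against gastric cancer. A further splice choice in mouse shortens the cytoplasmic tail, the end at which claudins bind scaffold proteins of the ZO family.

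Cldn18 (ENSMUSG00000032473.9) lies on the minus strand of chromosome 9, at chr9:99689461-99717267 of mm10, over 27807 bases. Its 2 annotated starts are 7204 bases apart. The upstream exon 1 encodes the start of the stomach-type protein and the downstream exon 1 that of the lung-type protein, and each is joined to a shared exon 2. The coding parts of these first exons are printed here because they carry the whole protein difference between both forms. They span chr9:99716996-99717215 and chr9:99709729-99709948 on mm10, minus strand, as annotated in GENCODE M21, and capitals mark the bases that differ.
stomach-type first coding exon: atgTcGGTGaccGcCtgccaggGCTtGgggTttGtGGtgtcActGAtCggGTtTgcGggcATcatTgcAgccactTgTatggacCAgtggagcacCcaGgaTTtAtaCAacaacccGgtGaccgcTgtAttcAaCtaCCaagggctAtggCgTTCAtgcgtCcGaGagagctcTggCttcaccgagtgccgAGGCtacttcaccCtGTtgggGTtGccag
lung-type first coding exon: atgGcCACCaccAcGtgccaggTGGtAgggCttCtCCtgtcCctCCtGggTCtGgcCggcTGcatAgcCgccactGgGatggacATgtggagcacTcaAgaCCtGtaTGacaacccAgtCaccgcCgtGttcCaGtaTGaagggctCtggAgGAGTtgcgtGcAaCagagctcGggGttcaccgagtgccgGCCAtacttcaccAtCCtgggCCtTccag
Each is 220 bases long, and they differ at 67 bases, an identity of 69.5%. Of the 73 complete codons, 20 encode a different residue. The stomach-type and lung-type proteins with the full end have 264 residues each, with 0 differing residues after the first exon.

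The second choice lies at the end of exon 4, which is 111 bases long in the full form and 123 bases long in the truncated form. The joins of exon 4 to exon 5 are printed with 30 bases of each exon, since only the 12-base extension, in capitals, tells the forms apart.
exon 4 to exon 5, full form: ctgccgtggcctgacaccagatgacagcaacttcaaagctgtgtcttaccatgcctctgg
exon 4 to exon 5, truncated form: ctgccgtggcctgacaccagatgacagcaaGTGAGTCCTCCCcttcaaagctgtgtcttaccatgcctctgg
A stop codon, TGA, begins at base 2 of the extension. The truncated stomach-type protein therefore has 208 residues, of which the first 207 are shared with the full form, and is 56 residues shorter. The annotation combines the choices into 4 transcripts. Cldn18-203 has the stomach-type first exon and the truncated end and is 860 bases long. Cldn18-202 has the stomach-type first exon and the full end, with 1750 bases. Cldn18-201 has the lung-type first exon and the full end, with 4172 bases, and Cldn18-204 has the lung-type first exon and the truncated end, with 1409 bases.

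Cldn18 was an abundant message of the stomach and nearly equal in both libraries. The gene reached 565 TPM, a level per length that sums to the same total in each library, in replicate 1 and 547 TPM in replicate 2, a mean of 556 ± 13.1 (SD, n = 2). By mean TPM it ranked 140 of all mouse genes and 129 of 21474 protein-coding genes. The counts behind these levels were 28078 and 33468 expected read pairs, or 0.0544% and 0.0543% of the counts on mouse genes. Leaving Clps and Pgc, 2 very abundant genes of digestive secretion, out of the total gave a mean of 897 TPM, and putting all of its read pairs on the Cldn18-202 model, described below, gave 314 TPM and a rank of 219 among protein-coding genes. Reads shared with other genes left little uncertainty, as the deposited posterior standard deviation of the count was 0.50 in replicate 1 and 0.00 in replicate 2.

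The difference between the libraries was small beside that of other genes. The log2 ratio of scaled counts, replicate 2 over replicate 1, was -0.015 for Cldn18, with a 95% interval from counting error of -0.038 to 0.0075. Among 7047 genes with a mean TPM of 5 or more, the median log2 ratio was -0.13, and the central range from the 5th to the 95th percentile ran from -1.09 to 0.55. A difference of 2-fold or more either way was present in 7.29% of these genes and not in Cldn18. With 1 group of 2 libraries, no test between conditions exists.

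**Figure D1:**
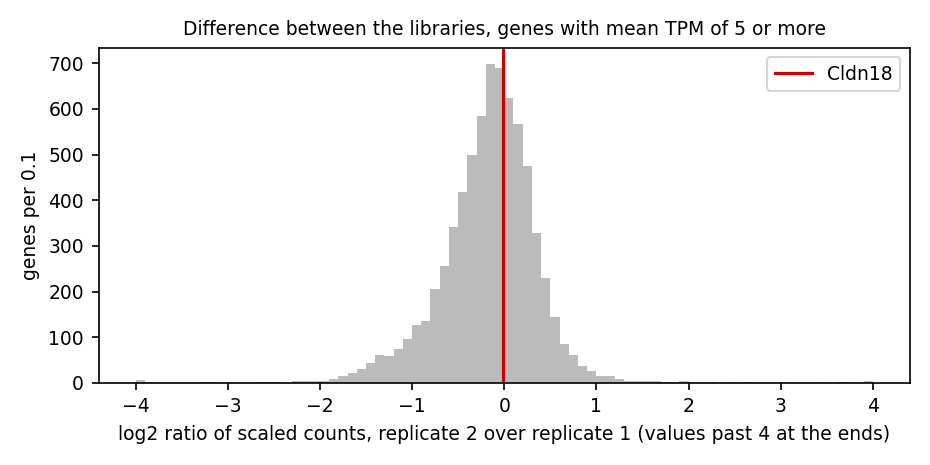
Histogram of the log2 ratio of scaled counts, replicate 2 over replicate 1, for 7047 genes with a mean TPM of 5 or more; the vertical line is Cldn18. The x axis is the log2 ratio, with values past its ends gathered in the last bars, the y axis counts genes per bar, and Cldn18 lies at -0.015.

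The gene's level was split very unequally among its transcripts. Cldn18-203 reached 521 TPM in replicate 1 and 488 TPM in replicate 2, a mean of 504 ± 23.4 (SD, n = 2), and held 92.08% and 89.14% of the gene by the deposited percentage. Cldn18-201 had a TPM of 31.4 and 28.6, a mean of 29.99 ± 2.04 (SD, n = 2). Cldn18-202 reached 12.3 TPM in replicate 1 and 30.6 TPM in replicate 2, a mean of 21.4 ± 12.9 (SD, n = 2). Cldn18-204 was the lowest, with a TPM of 1.00 and 0.30.

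By these estimates Cldn18-203 was far above the other transcripts in both libraries, although its truncated end held only 6.57% of the junction reads described below, and Cldn18-201 and Cldn18-202 changed order between them. Cldn18-202 was the transcript whose estimate moved most among the 3 with a mean TPM above 1. Its TPM in replicate 2 was 2.48 times that in replicate 1, and its deposited TPM bounds, 9.37 to 15.0 in replicate 1 and 27.8 to 33.4 in replicate 2, did not overlap. As a percentage of its count, its posterior standard deviation was 11.5% in replicate 1 and 4.31% in replicate 2, and that of Cldn18-203 was 0.395% and 0.441%. By these estimates the gene's sum moved little while its share between the stomach-type transcripts of full and truncated end moved. In the junction reads described below, the full end held 92.7% in column R1 and 94.1% in column R2. The sources do not tie these columns to a library.

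**Figure D2:**
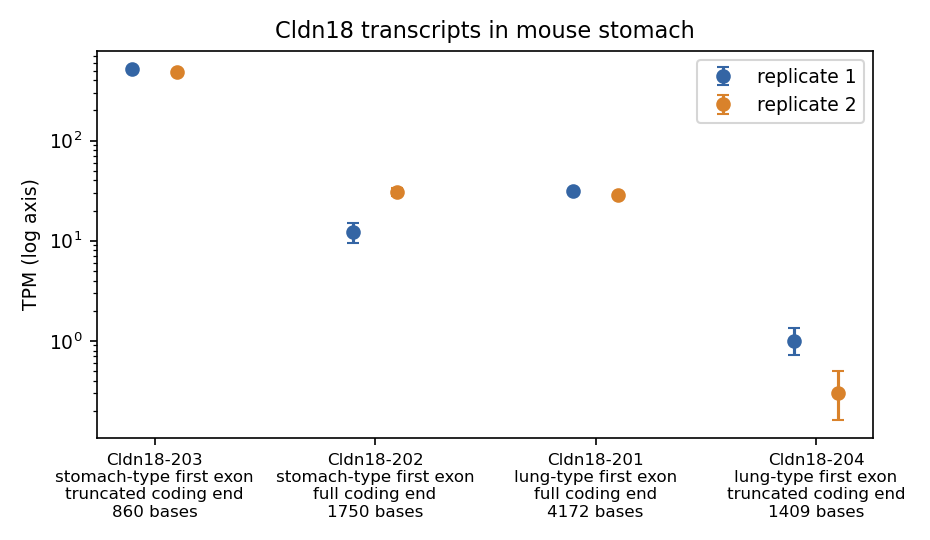
TPM of each Cldn18 transcript on a log axis, with 1 point per library and bars for the deposited TPM bounds, whose level the tables do not state. Cldn18-203 stands at 521 and 488, and Cldn18-202 differs between the libraries by more than its bounds.

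The stomach-type first exon dominated in every readout, but its share depended on the readout. By transcript TPM it held 94.3% of Cldn18 in replicate 1 and 94.7% in replicate 2, a mean of 94.5% ± 0.326 (SD, n = 2). The lung-type first exon held the remaining 5.74% and 5.27%. By expected read pairs, which grow with transcript length, the lung-type share was 25.9% in replicate 1 (95% exact interval 25.4% to 26.4%) and 23.4% in replicate 2 (22.9% to 23.8%). Nearly all of those lung-type read pairs, 7210 and 7799, were assigned to Cldn18-201, the longest transcript. The intervals on expected read pairs treat assigned pairs as observed counts, so they leave out any error of assignment.

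Reads that cross from a first exon into exon 2 gave a lower lung-type share. The deposited junction table, which holds both libraries in 1 table, had 5560 reads from the stomach-type exon and 92 from the lung-type exon. The lung-type share was therefore 1.63% of 5652 reads (95% exact interval 1.31% to 1.99%), and the stomach-type share was 98.4% (98.0% to 98.7%). The table splits each count into columns R1 and R2, which the sources used here do not tie to a library, and the lung-type share was 1.97% in R1 and 1.37% in R2. The 92 lung-type reads were split into 48 and 44, so the form was present in both columns. The lung-type share by TPM lay above the interval from the junction reads in each library. Exact intervals here cover counting error only.

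The signal of assembled contigs gave a share close to that of the junction reads. The contig over the stomach-type exon 1 had a signal of 403, in the table's own coverage unit, and the contig over the lung-type exon 1 had 8.63. The lung-type share of the summed signal was 2.10%. The highest of the 22 contigs lying in introns had a signal of 3.58, their median was 0.398, and the highest of 15 in the first intron had 1.35. The lung-type exon thus stood above every intron contig of the gene. Its contig was 537 bases long and reached 3 bases before the annotated exon and 199 bases past it.

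The readouts disagreed on the end of the protein. By transcript TPM the truncated end held 92.3% of Cldn18 in replicate 1 and 89.2% in replicate 2, a mean of 90.7% ± 2.17 (SD, n = 2). By expected read pairs it held 70.4% and 66.9%. By junction reads the order was the reverse, with 184 reads on the truncated join and 2618 on the full join. The truncated share was 6.57% of 2802 junction reads (95% exact interval 5.68% to 7.55%), and it was 7.30% in R1 and 5.86% in R2. The truncated end was thus the majority form by transcript TPM and the minority form by the reads that cross the join. The cause of the difference was not tested.

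**Figure D3:**
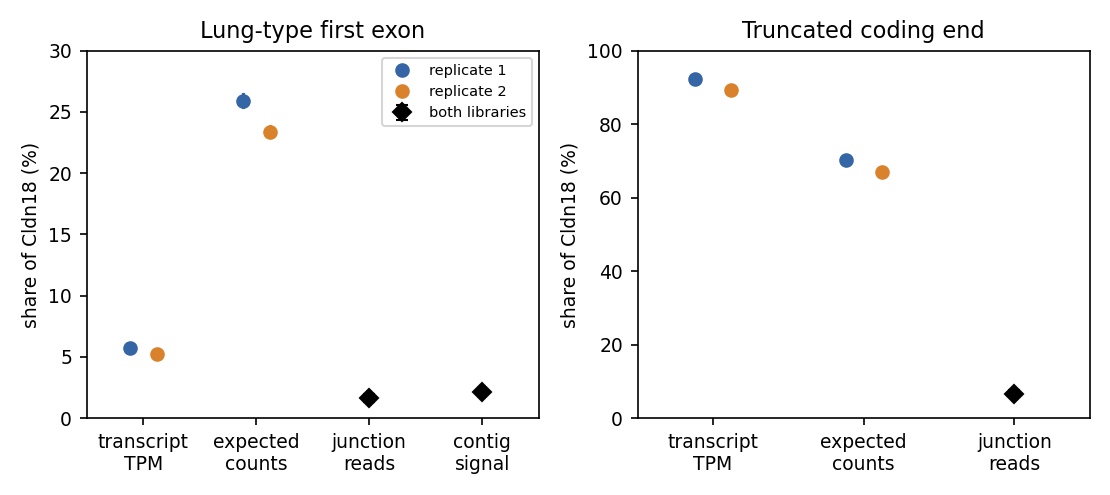
Share of Cldn18, in percent, with the lung-type first exon (left) and with the truncated coding end (right), by readout. Circles are single libraries and diamonds both libraries together, with 95% exact intervals for the counts; the truncated share is near 90% by TPM and 6.57% by junction reads.

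Signal along the gene fell towards exon 5, in which the 4 transcript models differ most in length. The contig signal was 277 over exon 2, 183 over exon 3 and 163 over exon 4. It was 33.8 over the first stretch of exon 5, up to 1052 bases past the exon's start, or 0.0839 of the signal at the stomach-type exon 1. It was 62.8 over the second stretch, from 1068 to 2129 bases past the start, 1.86 times the first. Beyond that, both remaining contigs had signals of 0.224 and 0.194, within the range of the intron contigs.

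Annotated last exons run for 173 bases in Cldn18-203, 713 in Cldn18-204, 1075 in Cldn18-202 and 3434 in Cldn18-201. The second stretch of exon 5 thus lies almost wholly in sequence that Cldn18-201 alone, a lung-type model, covers among the 4. No model joins the stomach-type first exon to sequence beyond 1075 bases of exon 5. The effect of this on the transcript estimates was not tested. Where all read pairs of the gene were instead put on the Cldn18-202 model, the gene reached 314 TPM in replicate 1 and 313 TPM in replicate 2, a rank of 219 among protein-coding genes. That model covers almost none of the second stretch, and no level was computed on a longer stomach-type model.

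Junction reads were also fewest at the join into exon 5, without a steady fall before it. There were 5652 reads from the first exons into exon 2, 4176 from exon 2 to exon 3 and 4610 from exon 3 to exon 4. The 2802 reads from exon 4 to exon 5 were 60.8% of those from exon 3 to exon 4.

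Splicing up to the start of the last exon followed the annotation closely. Of 17309 junction reads counted there, 17240 lay on the 6 annotated junctions. A further 13 junctions shared 69 reads, or 0.399%, with at most 14 on any one. No counted junction reached past the start of the last exon, so these counts do not cover joins within that exon. Exon 3 was skipped in 8 of 4184 reads leaving exon 2, 0.191% (95% exact interval 0.0826% to 0.376%), with all 8 in R2. Exon 2 was skipped in 1 of 5561 reads leaving the stomach-type exon, and 9 reads joined that exon to an unannotated acceptor.

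**Figure D4:**
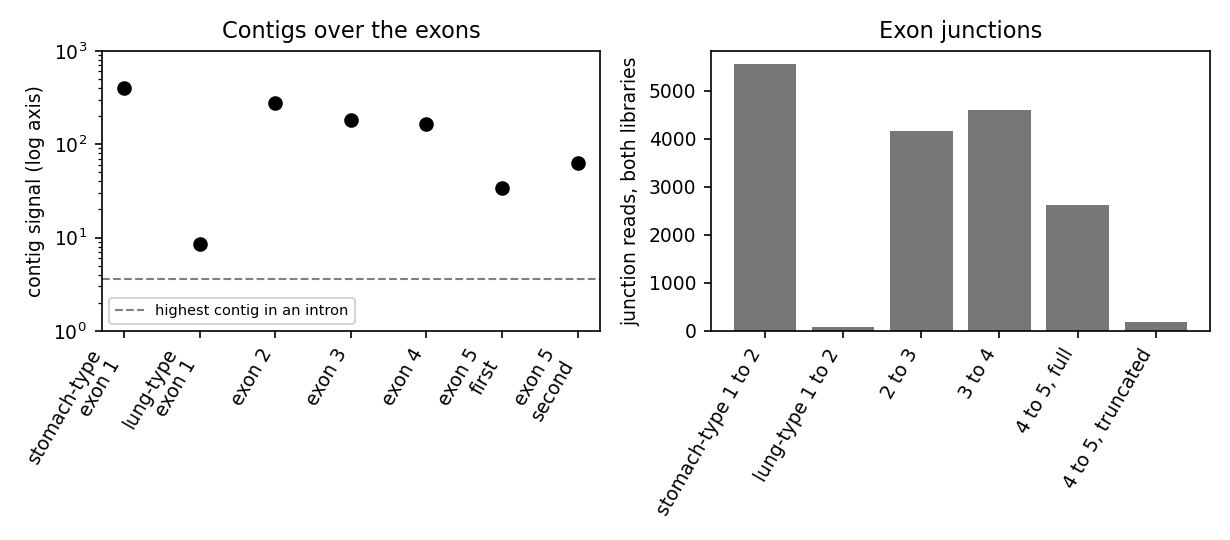
Contig signal over each Cldn18 exon on a log axis (left) and reads on the 6 annotated junctions (right), both from tables that pool the libraries; the dashed line is the highest contig in an intron, 3.58. Stomach-type exon 1 stands at 403 and 5560 reads, against 8.63 and 92 for lung-type exon 1.

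The 250 bases before each start are printed because the stomach-type contig ran 124 bases past the annotated start into this window, whereas the lung-type contig reached 3 bases into its own. Contigs also began before internal exons, by 57 bases at exon 2, 149 at exon 3 and 58 at exon 4. The 124 bases alone therefore do not locate a start. The printed windows come from RefSeq on GRCm38.p6, minus strand, and span chr9:99717268-99717517 and chr9:99710064-99710313. Capitals mark matches to the motifs searched on both strands.
before the stomach-type start: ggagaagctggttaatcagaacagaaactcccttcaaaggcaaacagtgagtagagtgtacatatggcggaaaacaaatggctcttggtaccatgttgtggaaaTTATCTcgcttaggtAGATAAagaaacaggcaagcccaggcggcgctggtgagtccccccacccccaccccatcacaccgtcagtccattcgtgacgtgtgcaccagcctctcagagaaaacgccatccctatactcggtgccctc
before the lung-type start: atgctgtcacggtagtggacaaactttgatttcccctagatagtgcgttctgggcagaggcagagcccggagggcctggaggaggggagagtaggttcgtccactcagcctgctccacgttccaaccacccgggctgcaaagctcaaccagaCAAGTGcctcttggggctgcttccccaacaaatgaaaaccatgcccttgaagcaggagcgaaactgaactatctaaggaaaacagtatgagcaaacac
Their GC content was 52% and 54%, with 9 and 7 CpG pairs. The GATA motif, AGATAA or TGATAA, matched at 2 places before the stomach-type start, 146 to 141 bases before it on the opposite strand and 131 to 126 bases before it on the gene's strand, and at 0 before the lung-type start. Of 32851 promoters of 27025 genes in the same table, 16.6% held it in the 250 bases. The NKX2 motif, CAAGTG, matched once before the lung-type start, 98 to 93 bases before it, and at 0 before the stomach-type start, with 11.6% of promoters holding it. The TATA box TATAAA, the FOX motif TAAACA and the SOX motif ACAANG had 0 matches in either window, against 12.4%, 12.03% and 36.3% of promoters. These are matches of letters and not sites of binding.

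Factors linked to Cldn18 exon use or to gastric, lung or intestinal identity were measured beside these motifs, from a list of 14. Of these, 11 had a TPM of 1 or more in both libraries, a level reached by 48.9% of protein-coding genes. Gata4, a zinc-finger factor of foregut endoderm, had a TPM of 138 and 115, and Gata6, its close relative, had 67.6 and 41.6. Barx1, a homeobox factor of stomach mesenchyme, had 183 and 108. Factors of the FOX and SOX families, whose motifs had 0 matches in either window, were also present. Foxa1 had a TPM of 47.75 and 42.2, Foxa3 had 48.35 and 46.04, and Sox2 had 19.85 and 15.69. Any link between factors and motifs was not tested. Hnf4a, a nuclear receptor of gut epithelium, had 87.6 and 83.7, Klf5, a factor of gut epithelial growth, had 92.1 and 73.2, and Foxa2, a forkhead factor of endoderm, had 78.6 and 52.1. Nkx2-1, the homeobox factor of lung and thyroid, had 0 read pairs in both libraries, and the intestinal factor Cdx2 had a TPM of 0.25 and 0.35.

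The lung-type reads were set beside 16 genes of lung alveoli and airways. Of these, 4 had a TPM of 1 or more in both libraries, against 48.9% of all protein-coding genes. A further 6 had 0 read pairs in both, and the list's summed TPM was 137 in replicate 1 and 85.8 in replicate 2. The surfactant genes Sftpa1 and Sftpb had 0 read pairs in both libraries, as did Lamp3, a lamellar body protein of alveolar cells, and Nkx2-1. Sftpc, which encodes surfactant protein C, had 1 read pair in replicate 1 and 0 in replicate 2, and Sftpd had 3 and 6. A count of 0 allows up to 3 read pairs, or 0.0573 and 0.0480 CPM in replicates 1 and 2.

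The 4 genes of the lung list that reached the level were Hopx, Scgb1a1, Abca3 and Etv5. Hopx, a homeodomain protein, had a TPM of 70.9 and 30.6. Scgb1a1, the secretoglobin of airway club cells, had 39.2 and 21.8, on 613 and 425 read pairs. Abca3, a lipid transporter of lamellar bodies, had 19.9 and 26.0, and Etv5, an ETS factor, had 4.19 and 5.60. Napsa, an alveolar protease, had 1.5 and 0.75. Slc34a2, a phosphate transporter, had 0.47 and 0.58, and Ager, a receptor of flat alveolar cells, had 0.54 and 0.39. Their part in the lung-type reads was not tested.

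Within its family Cldn18 held most of the claudin message. Of 29 claudin symbols, 28 matched a gene, and 11 of these had a TPM of 1 or more in both libraries, against 48.9% of all protein-coding genes. Cldn18 made up 88.7% of the summed claudin TPM in replicate 1 and 90.9% in replicate 2, a mean of 89.8% ± 1.57 (SD, n = 2). The other 27 claudins together had a TPM of 72.3 and 54.8.

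Cldn4, a claudin of many barrier epithelia, was next, with a TPM of 16.2 and 15.4, and the Cldn18 mean was 35.2 times its mean. With all Cldn18 read pairs on the Cldn18-202 model it was 19.9 times the Cldn4 mean. That model ends before nearly all of the second stretch of exon 5. Cldn23 had 16.9 and 8.84, and Cldn5, the main claudin of endothelium, had 15.0 and 8.78. Cldn23 and Cldn4 changed order between the libraries, and Cldn5 was below both in each. Cldn12 had 4.54 and 5.15, and Cldn7, a claudin of lateral membranes, had 4.43 and 3.32.

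The remaining claudins were low. Cldn15 and Cldn2, both of which form cation pores, Cldn3, Cldn1 and Cldn22 lay between a TPM of 1.05 and 3.55 in every library. Of the 17 claudins below a TPM of 1 in both libraries, Cldn17 was the highest by mean, with 0.41 and 0.91, followed by Cldn10 with 0.60 and 0.23, and 8 had 0 read pairs in both.

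**Figure D5:**
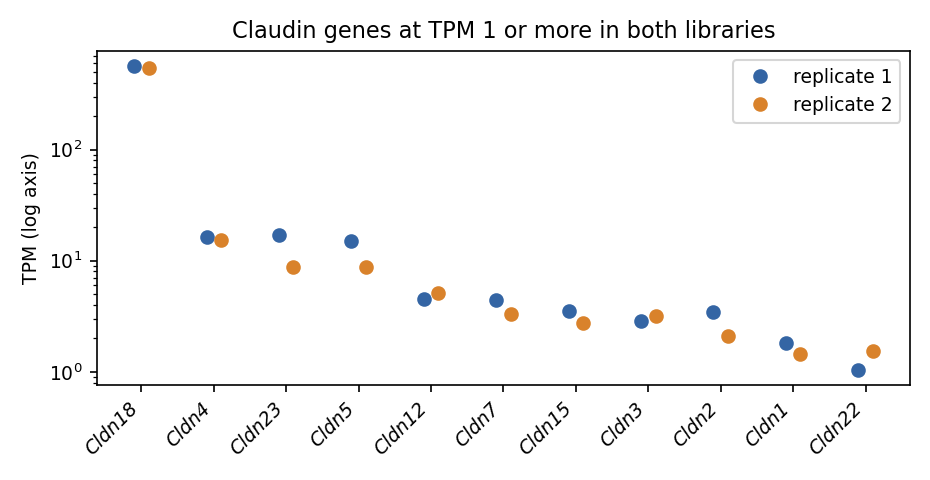
TPM of the 11 claudin genes with a TPM of 1 or more in both libraries, on a log axis, 1 point per library. Cldn18 stands at 565 and 547, and the next gene, Cldn4, at 16.2 and 15.4.

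Most partners of claudins at the tight junction were also present. Of 24 matched genes, 21 had a TPM of 1 or more in both libraries. The share over all protein-coding genes was 48.9%. The highest was Lsr, a protein of contacts between 3 cells, with a TPM of 346 and 226. Cldn18 was above it as deposited, and with all read pairs on the Cldn18-202 model, at 314 and 313 TPM, was below it in replicate 1 and above it in replicate 2. The order of Cldn18 and Lsr on a longer stomach-type model was not computed. The polarity protein Crb3 had 131 and 112, and Tjp3, which encodes the scaffold ZO-3, had 91.4 and 73.6. Sympk, a junction and RNA-processing protein, had 56.4 and 43.7, the adhesion molecule F11r had 46.6 and 38.8, and the polarity protein Pard3 had 39.2 and 36.7. Tjp1, which encodes the scaffold ZO-1, had 3.68 and 5.24, and occludin, Ocln, had 3.04 and 4.93. Ildr1, a relative of Lsr, had 0.68 and 0.95, and the polarity gene Mpp5 had 0.08 and 0.13.

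Markers of stomach cell types were summed in each library. The summed TPM of 9 markers of pit cells, the surface mucous cells, was 73128 in replicate 1 and 71566 in replicate 2. That of 5 chief cell markers was 103777 and 152100, of which Pgc alone had 101314 and 148481. Parietal cell markers summed to 5073 and 2794 over 9 genes, neck and gland mucous cell markers to 5729 and 3808 over 6, enteroendocrine markers to 3935 and 2705 over 6, squamous forestomach markers to 4865 and 3449 over 10, and smooth muscle markers to 6170 and 3742 over 6. Over markers with a mean TPM of 1 or more, the median log2 ratio, replicate 2 over replicate 1, was 0.29 for pit cell markers (7 of 9 higher in replicate 2), 0.55 for chief cell markers (5 of 5) and -0.77 for smooth muscle markers (1 of 6). Of the parietal cell markers 7 of 9 reached that level, with a median of -0.64 (2 of 7 higher in replicate 2). The median was -0.33 for neck (2 of 6), -0.43 for enteroendocrine (0 of 6) and 0.07 for squamous markers (5 of 10). The ratio for Cldn18 was -0.015. Members went both ways in every one of these lists except the chief cell and enteroendocrine lists. In whole tissue, fewer cells of a type and less RNA per cell cannot be told apart.

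Among the protein-coding genes nearest Cldn18 in level over both libraries, by Euclidean distance of log2(TPM + 1), were Gstm1, Acta1, Mucl3 and Hcfc1r1, at distances of 0.0619 to 0.134. Gstm1, a glutathione transferase, had a TPM of 547 and 562 and ranked directly below Cldn18. Acta1, skeletal muscle actin, had 587 and 530, Mucl3, a mucin-like protein, had 536 and 535, and Hcfc1r1 had 535 and 589. Gm12338, which ranked directly above, had a TPM of 762 and 350 on 59.6 and 145 read pairs. Over 2 libraries, such nearness describes levels only.

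Genes around Cldn18 on chromosome 9 were much lower. The 3 nearest protein-coding genes on the side past its 3′ end were Dzip1l, with a TPM of 3.56 and 3.44, A4gnt, an enzyme of gastric mucin glycosylation, with 21.5 and 19.4, and Dbr1, the enzyme that opens intron lariats, with 3.25 and 2.50. On the other side, Sox14 had 0 read pairs in both libraries, the cytokine receptor gene Il20rb had a TPM of 3.76 and 4.86, and the adaptor gene Nck1 had 0.08 and 0.22. Gm16004, annotated antisense to Cldn18, had 0 read pairs in both strand-specific libraries.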

How the data were processed

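The expected counts per gene and transcript were deposited as 1 table per library, from transcriptome alignments on mm10 with GENCODE M4 models, per the README beside the tables. The TPM and FPKM values and the percent each transcript holds of its gene were deposited by the authors. Column names are those RSEM writes; no source used here gives the aligner or versions. TPM divides by transcript length, so the model a read is assigned to changes the level. The deposited junction table gives counts of reads on mm9, and the deposited contig table a signal proportional to coverage; each deposited row also holds a score between 0 and 1 that the sources do not define. These tables pool both libraries. No coordinates were converted; the 6 annotated introns were matched by length and spacing.

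Symbols and exons came from GENCODE M21 on mm10, in which 42462 of 43346 gene IDs (98.0%) had a symbol, and 250-base promoters from RefSeq. Spike-ins took 1.14% and 1.12% of expected counts and were left out of count ratios. Ratios used TMM-scaled counts (edgeR 4.0.16, R 4.3.3) with a prior count of 2, and their calculation was tested on simulated data. The share of genes differing 2-fold between the libraries was taken over genes with a mean TPM of 5 or more. The share of 48.9% was taken over all 21474 protein-coding genes. Medians of lists took members with a mean TPM of 1 or more. DESeq2 1.42.0 size factors were an alternative. Intervals are Clopper-Pearson at 95% (SciPy 1.17.1) and cover counting error only. Effective lengths of Cldn18 were 859 and 892 bases.

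The members and 11 gene lists were chosen with earlier results of these data known; 5 of 137 listed symbols matched no gene. Named genes were the list members of highest mean TPM and the highest below a TPM of 1, the 5 genes nearest in level (1 item is not reported here), the rank neighbours and the chromosome neighbours; cell type lists are given as sums, and Tjp1, Ocln and the lung markers at or near 0 were named after their values were seen. The plan had the downstream exon as stomach-type, but the annotated coding sequence shows the reverse; the naming was changed after values were seen. Foxa1, Foxa3 and Sox2 were also named after their values were seen. With 1 group of 2 libraries, no p-value was computed.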

Additional observations from a re-analysis of the deposited data

How the results depend on the processing

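The mean Cldn18 level of 556 TPM was 897 without Clps and Pgc in the total, 613 as FPKM, and 314 with all read pairs on the Cldn18-202 model. The stomach-type first exon share of 94.5% was 75.3% by expected counts, 98.4% by junction reads and 97.9% by contig signal, and 5.51% with the exons named as first planned. The truncated share of 90.7% was 68.7% by expected counts and 6.57% by junction reads. The log2 difference between the replicates, -0.015, was -0.039 with DESeq2 size factors, -0.048 as log2(TPM + 1) and 0.025, the opposite sign, with spike-in counts as the scale; all are small. At a TPM of 5 the claudins detected numbered 4 in place of 11, and by expected counts Cldn18 held 82.2% of the claudin sum. The causes were not tested. The Cldn18-202 model, the contig signal, the changed exon naming and the junction readout of the coding end were chosen after seeing the data.

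The other 31 alternative values moved by less than the spread between libraries, stayed inside the 95% counting interval (junction share and replicate difference) or were within 1.5 times of a count. Leaving out a replicate gave a level of 547 to 565 TPM, a stomach-type share of 94.3% to 94.7%, a truncated share of 89.2% to 92.3%, and a claudin share of 88.7% to 90.9%. With 2 libraries, leaving 1 out always moves a mean by less than the SD, so these values do not check stability. The deposited percentages restate the TPM shares. A limit of 0.1 on the junction score removed none of the first-exon reads. No paired analysis was possible because the series has 1 group. The junction and contig tables pool the libraries, so their shares have no replicate spread; the 92 lung-type reads limit the precision of that share.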
